A study of Homo sapiens with 2 samples.

Results

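The densest megabases of the interphase nucleosome map of ARPE-19 cells were described, outside chromosomes 9 and 15. The 20 other autosomes were divided into bins of 1 Mb counted from their first base, and the 38 bins of 2646 that held at least 1700 called nucleosome positions were taken as members, which is 1.44% of the bins. They held 71985 of 2299971 distinct positions, or 3.13%, in 1.47% of the determined bases. Because the bins were selected on their counts of positions, those counts are a description and no test was made of them.

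ARPE-19 is an established human line of retinal pigment epithelium, the cell layer behind the photoreceptors. The cells were in interphase under normal culture, and nucleosomal DNA was released with micrococcal nuclease (MNase), which cuts the DNA between nucleosomes, and sequenced. The labels name 2 MNase batches, and a single list of positions was analysed here, with no height, score or sample of origin for any position. Whether the list pools both batches is not given in the sources used here. Depth is therefore unknown, and no position, bin or difference has a replicate error.

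A nucleosome is DNA wrapped around a core of histones, and the linker between neighbours sets the distance from one nucleosome to the next. MNase digests AT-rich DNA more readily than GC-rich DNA, so a map of protected fragments is related to base composition as well as to where nucleosomes lie. Alpha satellite, the tandem repeat of human centromeres, is built of monomers of about the length of nucleosomal DNA plus a short linker. Segmental duplications are long stretches copied to other places in the genome.

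The 38 bins were of 2 kinds, told apart by a measure of the reference alone. This was the share of 50-base words, sampled every 500 bases, that occur more than once in chromosomes 1 to 22, X and Y. In 31 bins 2.0% to 10.8% of the words were repeated, and these are called repeat-poor. In the other 7 bins the share was 15.6% to 74.4%, and these are called repeat-rich. The division at 15% was placed in that gap after the values were seen.

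Stretches of 300 bases from 5 members illustrate the patterns described below, and were picked for them. They are given 5′ to 3′ on the plus strand of hg38, in lower case, with the base of each called position in capitals. The first was picked as a pair of neighbours about 1 nucleosome repeat apart near the middle of a repeat-poor bin. The next 2 hold the most positions of any 300 bases in a crowded block of a repeat-rich bin. The last 2 were picked, in blocks with the repeat of alpha satellite, as pairs about 171 bp apart with the best match of the sequence to itself at that offset. The distances in them are therefore given by the choice and stand for no typical value.
repeat-poor, chr5:133483735-133484034: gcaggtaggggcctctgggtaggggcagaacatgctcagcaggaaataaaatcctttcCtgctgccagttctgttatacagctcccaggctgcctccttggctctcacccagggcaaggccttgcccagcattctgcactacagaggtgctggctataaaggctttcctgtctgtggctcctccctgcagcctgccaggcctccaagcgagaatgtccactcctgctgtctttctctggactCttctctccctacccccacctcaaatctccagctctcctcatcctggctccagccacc
crowded block, chr4:189759270-189759569: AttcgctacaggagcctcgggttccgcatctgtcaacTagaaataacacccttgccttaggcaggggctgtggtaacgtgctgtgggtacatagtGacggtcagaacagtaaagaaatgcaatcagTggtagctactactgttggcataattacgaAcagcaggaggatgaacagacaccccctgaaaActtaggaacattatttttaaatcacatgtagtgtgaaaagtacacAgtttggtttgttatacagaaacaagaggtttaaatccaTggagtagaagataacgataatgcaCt
crowded block, chr1:148777556-148777855: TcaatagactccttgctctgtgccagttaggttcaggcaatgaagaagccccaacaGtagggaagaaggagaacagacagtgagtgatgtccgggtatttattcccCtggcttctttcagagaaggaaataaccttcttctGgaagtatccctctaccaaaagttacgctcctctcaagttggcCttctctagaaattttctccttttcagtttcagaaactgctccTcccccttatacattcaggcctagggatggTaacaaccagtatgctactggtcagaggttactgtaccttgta
satellite block, chr16:32553219-32553518: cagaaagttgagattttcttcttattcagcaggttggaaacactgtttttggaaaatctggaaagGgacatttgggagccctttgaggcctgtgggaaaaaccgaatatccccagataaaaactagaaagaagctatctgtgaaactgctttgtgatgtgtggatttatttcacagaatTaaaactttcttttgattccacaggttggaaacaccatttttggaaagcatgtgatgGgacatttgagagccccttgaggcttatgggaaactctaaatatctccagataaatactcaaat
satellite block, chr21:10748053-10748352: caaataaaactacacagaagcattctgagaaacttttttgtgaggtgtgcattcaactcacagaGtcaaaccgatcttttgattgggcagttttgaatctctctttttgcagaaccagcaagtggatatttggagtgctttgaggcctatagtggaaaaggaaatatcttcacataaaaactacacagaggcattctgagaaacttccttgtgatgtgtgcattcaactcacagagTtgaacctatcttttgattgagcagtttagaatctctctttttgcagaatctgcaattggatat

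The repeat-poor stretch lies in an intron of FSTL4 and held 2 positions 184 bp apart. The chromosome 1 stretch lies in an intron of SEC22B3P, a pseudogene, and GENCODE 44 places no gene on the other 3. The chromosome 4 stretch held 9 positions with gaps of 25 to 58 bp, and the chromosome 1 stretch held 7 with gaps of 30 to 56 bp. Each of those gaps is shorter than the DNA wrapped in 1 nucleosome, so these positions cannot all be filled on 1 DNA molecule. The offset of 171 bp is that at which chromosome 21 most often equals itself among offsets of 100 to 250 bp, and it is the length of the alpha satellite monomer. In the chromosome 21 stretch the 2 positions lay 172 bp apart, and 90.3% of its bases equalled the base 171 bp further on. In the chromosome 16 stretch 75.7% did so, and its 3 positions followed at 114 bp and then 57 bp, so that the first and the third were 171 bp apart.

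The members lay on 13 of the 20 chromosomes. Chromosome 8 had 8 of its 146 bins among them, or 5.48%, the highest share. Chromosome 2 followed with 6, chromosome 5 with 5, chromosome 4 with 4 and chromosome 1 with 3. Chromosomes 7, 16, 17 and 18 had 2 each, and chromosomes 3, 6, 10 and 21 had 1 each. Chromosomes 11, 12, 13, 14, 19, 20 and 22 had none, and the highest bin among these was on chromosome 11, with 1673 positions. Chromosome 19 has the highest GC content of the 20 chromosomes, 47.9%, and a median of 26 protein-coding starts per bin, yet its highest bin held 1432 positions.

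Long runs did not occur. The 38 bins formed 34 runs, of which 30 were single bins and 4 were pairs of adjacent bins. The densest pair was at 141 to 143 Mb of chromosome 8, near the end of its long arm, with 4454 positions. The pair at 32 to 34 Mb of chromosome 16, beside the centromere on the short arm, held 3685, and both of its bins were repeat-rich. The pairs at 73 to 75 Mb of chromosome 17 and at 20 to 22 Mb of chromosome 8 held 3491 and 3452. By arm, 16 members lay on short arms and 22 on long arms. Of the 38 members 8 lay within 5 Mb of a chromosome end, against 200 of all 2646 bins. Within 10 Mb of the centromeric bins there were 5 members against 448 of all bins, and 4 of those 5 were repeat-rich.

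The median member held 1786.5 positions, against a median of 856 over all bins. The fullest was at 10 to 11 Mb of chromosome 21, in the short arm, with 3317 positions although only 0.80 Mb of it is determined sequence. The bin at 16 Mb of chromosome 1 followed with 2305, and then 141 Mb of chromosome 8 with 2247, 189 Mb of chromosome 4 with 2227 and 142 Mb of chromosome 8 with 2207. Just inside the threshold lay the bin at 1 Mb of chromosome 5 with 1701 and those at 37 Mb of chromosome 18 and 10 Mb of chromosome 8 with 1702 each. Just outside lay 239 Mb of chromosome 2 with 1690, 30 Mb of chromosome 1 with 1689 and 40 Mb of chromosome 6 with 1688. The threshold thus separated bins that differed by about 10 positions, and 28 bins fell short of it by 100 or fewer.

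The 2 kinds sat in different surroundings. Of the 56 non-member bins that adjoin repeat-poor members, 46 held at least 1095 positions, the 75th percentile of the 2557 bins with at least 0.5 Mb determined, and their median was 1341.5. Of the 11 that adjoin repeat-rich members, 2 did so and 5 held under 500, with a median of 572. Repeat-poor members were thus the crests of dense stretches, while most repeat-rich members stood beside sparse bins.

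Repeat-rich sequence as a whole was not dense. Of all 221 bins in which at least 15% of words are repeated, 93 held under 500 positions, the median was 620, and 7 were members.

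In repeat-rich members the positions were packed into short blocks. Of their 649 windows of 10 kb with determined bases, 148 held 40 positions or more, and these windows held 71.6% of their positions. In repeat-poor members 43 of 3099 windows did so, with 3.41% of the positions. Over all windows of the 20 chromosomes the share with 40 or more was 0.171%. Nucleosome cores laid end to end, with no linker, fit 68 times into 10 kb. More positions than that were called in 78 windows of repeat-rich members, in 1 window of repeat-poor members and in 66 windows elsewhere.

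**Figure D1:**
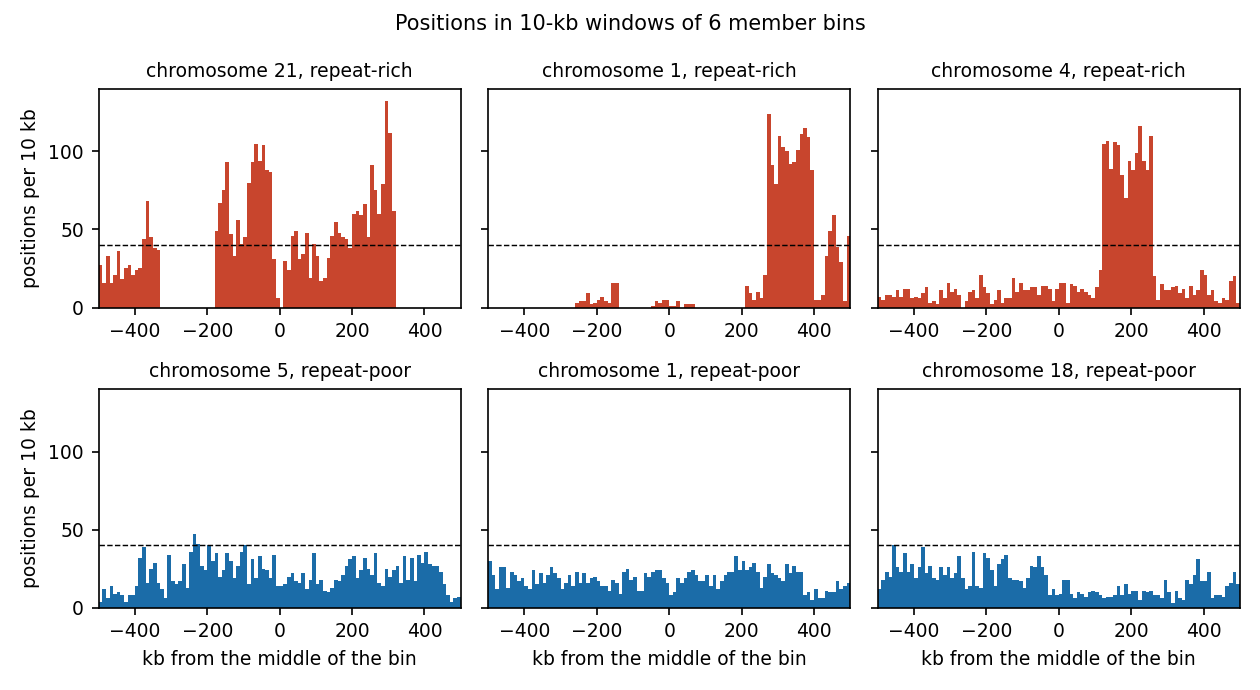
Positions called in each 10-kb window (y axis) against distance from the middle of the bin in kb (x axis) for 3 repeat-rich bins (red; chromosome 21 at 10 Mb, chromosome 1 at 148 Mb, chromosome 4 at 189 Mb) and 3 repeat-poor bins (blue; chromosome 5 at 133 Mb, chromosome 1 at 18 Mb, chromosome 18 at 48 Mb). The dashed line marks 40 positions. The red bins rise in blocks to between 116 and 132 positions while the blue bins reach 33 to 47. Windows at 0 can be undetermined sequence in the chromosome 21 bin only. The red bins of chromosomes 1 and 4 are determined throughout, so that windows at 0 there are sequence without a called position.

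Blocks were taken as stretches with at least 3 windows of 40 or more positions, in which a single lower window between such windows was bridged. Of 40 such blocks on the 20 chromosomes, 12 lay in repeat-rich members and 2 in repeat-poor members. The 12 blocks were 30 to 250 kb long, 1370 kb together, and held 10258 positions at 5.23 to 10.1 positions per kb.

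The block at chr4:189620001-189760000, towards the end of the long arm and in no annotated protein-coding gene, held 1355 positions in 140 kb. Its density was 9.68 per kb, against 1.22 and 1.24 in the 50 kb before and after it. At its left edge the count went from 24 in the last window outside to 105 in the first inside, and at its right edge from 110 to 20. The flanks were above the median density of all bins and well below that of the block. In the block 37.5% of words were repeated, against 21% and 7.5% in the 100 kb before and after.

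The densest of the 12 blocks was chr1:148770001-148900000, with 1316 positions at 10.1 per kb, where 95% of words are repeated. It overlapped PDE4DIP, which codes for a protein of the centrosome and Golgi and has many related copies on chromosome 1. The gene held 1209 of the 1764 positions of its bin, or 68.5%, in 19.2% of the bin's length. Inside the gene the density was 6.30 per kb, and in the rest of the bin it was 0.69.

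On the short arm of chromosome 1 the block chr1:16560001-16650000 covered NBPF1, a member of another copied gene family of this chromosome, and held 753 positions at 8.37 per kb. The longest block was chr6:60350001-60600000, beside the centromere, with 1629 positions in 250 kb at 6.52 per kb. In the chromosome 21 bin 3 blocks of 370 kb together held 2493 positions. TPTE, a gene of the phosphatase family with expression in testis, was the only protein-coding gene to start in that bin, and 308 of the bin's 3317 positions lay in it.

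The edges of these blocks were steep. The median count was 21 in the last 10-kb window outside and 55 in the first inside, and it was 78.5 in the next window inwards. At 15 of the 22 edges with determined sequence on the outer side, the window just inside held at least 2 times the count of the window just outside. The other 2 edges, both on chromosome 21, adjoin undetermined sequence. Windows of 40 or more define the blocks, so the window just inside had to hold at least 40 and the window just outside fewer. The step at the edge and its size are therefore partly given by the definition, and are a description.

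**Figure D2:**
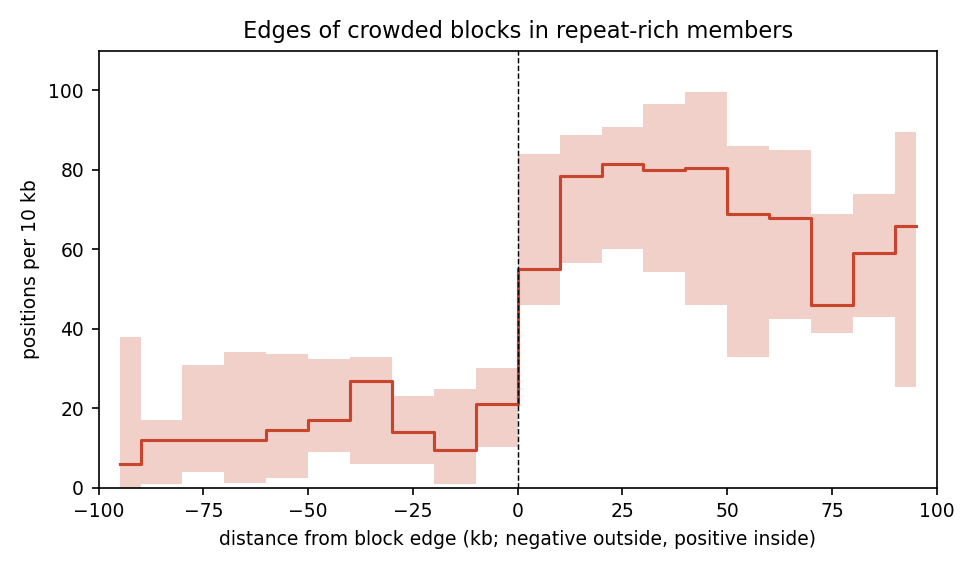
Positions per 10-kb window (y axis) against distance from the edge of a crowded block in kb (x axis; negative values lie outside) over the edges of the 12 blocks in repeat-rich members. The line is the median and the band runs from the lower to the upper quartile; the median goes from 21 just outside to 55 just inside.

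Steps were also sought at the ends of whole runs, as the point within 1 Mb of the end at which the counts on its sides of up to 500 kb differ most. Of 68 ends 3 could not be assessed, for want of determined sequence. A change of at least 2 times towards the run was found at 21 of the other 65, or 32.3%. Among bin boundaries away from members the share was 13.6%, counting changes in either direction. Since members were chosen for high counts, nothing is read from that difference.

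Abrupt ends were 7 of 9 in repeat-rich runs and 14 of 56 in repeat-poor runs. At 19 of the 65 ends the denser side was the outer one. The search reached across a single-bin run, so the same step could be found from both of its ends. Base 18870000 of chromosome 1, for example, gave a ratio of 2.27 for the end of its run and 0.44 for the start. The outer side at the start was there the dense part of the member itself. The 65 ends are thus not separate, and the 19 do not show surroundings denser than the runs.

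The steepest measured end was at base 149050000 of chromosome 1, just beyond PDE4DIP, where 3.90 positions per kb inside gave way to 0.20 outside, a ratio of 19.9. On the other side of the same bin, at base 148760000, the ratio was 14.0. At 32310000 and 33830000 of chromosome 16 the ratios were 5.31 and 4.18. Base composition on the sides of these 4 points called for ratios of 0.87 to 1.10.

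Among the repeat-poor runs the steepest was at base 8930000 of chromosome 4, beside HMX1, a homeobox gene of eye and ear development. There 1.95 per kb inside (95% Poisson interval 1.83 to 2.08) fell to 0.52 outside (0.46 to 0.59), a ratio of 3.75 where composition called for 1.15. At base 150380000 of chromosome 7, within ZNF775, a zinc finger gene, the ratio was 2.83 where composition called for 0.96. The run itself starts at base 151000001, so both sides of that point lie before it. At base 12670000 of chromosome 3, also before the start of its run at 13000001, the ratio was 2.34 where composition called for 1.49. At base 133100000 of chromosome 5, within HSPA4, a gene for a heat shock protein, it was 2.33 where composition called for 1.23. At base 120300000 of chromosome 2 it was 2.31 where composition called for 1.84. That was the highest composition ratio of any end, so no abrupt end of either kind had one of 2 or more. The intervals cover counting error only, and these ends were named after their values were seen.

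At 2 ends the outer side held no position at all. The first lay at base 45880000 of chromosome 8, on the centromeric side of the bin at 46 Mb. The other lay at base 10820000 of chromosome 21, at the end of the last crowded block. There the next 10-kb window is mostly undetermined, but most of the outer side is determined sequence without a called position. Both ends adjoin centromeric sequence.

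The repeat-poor members were GC-rich, but not the most GC-rich bins. All 31 had a GC content of at least 43.3%, with a median of 48.1%, against 40.02% over 2519 other bins. The repeat-rich members had a median of 41.5%, and 6 of the 7 lay under 43%. Over all members the median exceeded that of other bins by 6.98 percentage points. Within chromosomes the difference was 6.16 ± 5.04 points (SD over 13 chromosomes) and above 0 on 10 of them. It was below 0 on chromosomes 6, 16 and 21, whose members were all repeat-rich. For repeat-poor members alone it was 8.67 ± 2.63 points over 10 chromosomes and above 0 on each.

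**Figure D3:**
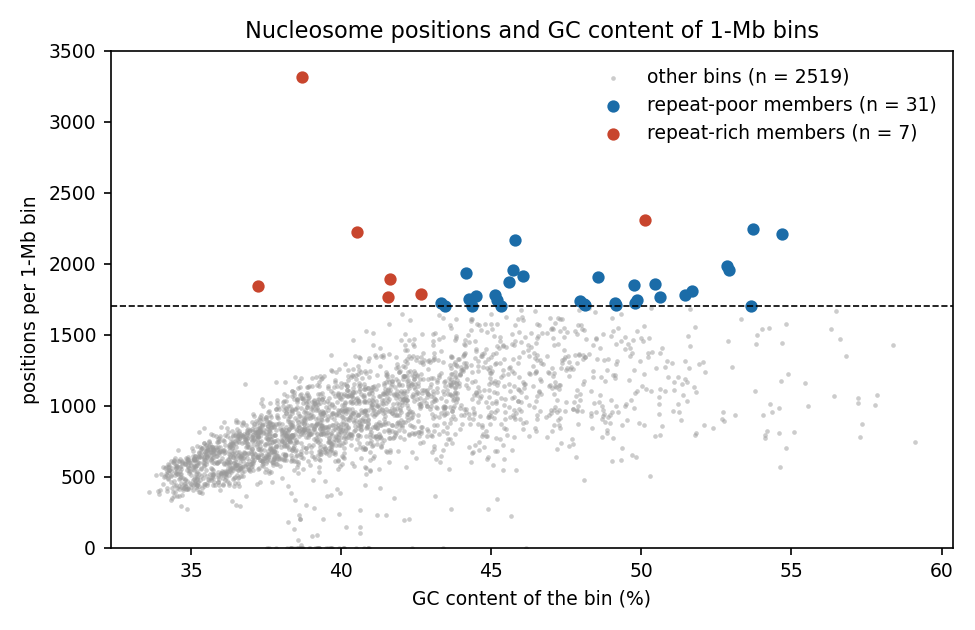
Positions per 1-Mb bin (y axis) against the GC content of the bin in percent (x axis) for other bins (grey), repeat-poor members (blue) and repeat-rich members (red); the dashed line is the threshold of 1700. Blue points start at 43.3% GC and end at 54.7%, while 6 of 7 red points lie under 43%.

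The share of bins that were members was higher, though not steadily so, in classes of higher GC content up to 55%. It was 4.61% at 44% to 46% GC (10 of 217), 1.37% at 46% to 48% (2 of 146), 8.16% at 48% to 50% (8 of 98) and 14.3% at 52% to 55% (5 of 35). Of the 16 bins at 55% to 60% none was a member, and their highest count was 1668. The median count per bin was highest at 46% to 48% GC, with 1228.5 positions, and was 1061.5 at 55% to 60%.

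The counts of the members exceeded those obtained by giving each base the mean density of its GC class. With classes of 2 percentage points of the surrounding 200 bp, the highest expected count of any bin was 1626 and that of any member 1570, so no bin was expected to reach 1700. Repeat-poor members held 1.35 times their expected count, with a range of 1.13 to 1.65 over the 31 bins. Repeat-rich members held 2.45 times theirs, with 1.69 at 16 Mb of chromosome 1, 3.59 on chromosome 6 and 5.61 on chromosome 21. Of the 53 bins expected to hold at least 1500 positions, 6 were members. These ratios use the counts that chose the bins, so that they had to lie high.

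The excess of the repeat-poor members was unequal between GC classes. In DNA of 36% to 38% GC they held 0.53 positions per kb, against 0.48 in the other bins of the same 10 chromosomes. At 44% to 46% the densities were 1.70 and 1.65 per kb. At 52% to 54% they were 2.45 and 1.71, and at 60% to 62% they were 2.86 and 1.94. The ratio was 1.03 to 1.25 in each class from 28% to 52% GC and 1.43 to 1.57 in each class from 52% to 66%. Other bins had a dip in density between 50% and 58% GC, down to 1.70 per kb, where the density of repeat-poor members went on rising to 2.96 per kb at 58% to 60%.

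Repeat-rich members differed from both. In AT-rich DNA of 30% to 32% GC they held 1.34 positions per kb, against 0.15 in repeat-poor members and 0.12 in other bins. At 36% to 38% the value was 2.50, and it lay between 2.50 and 3.20 per kb up to 56% GC. Their density therefore varied less with composition.

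**Figure D4:**
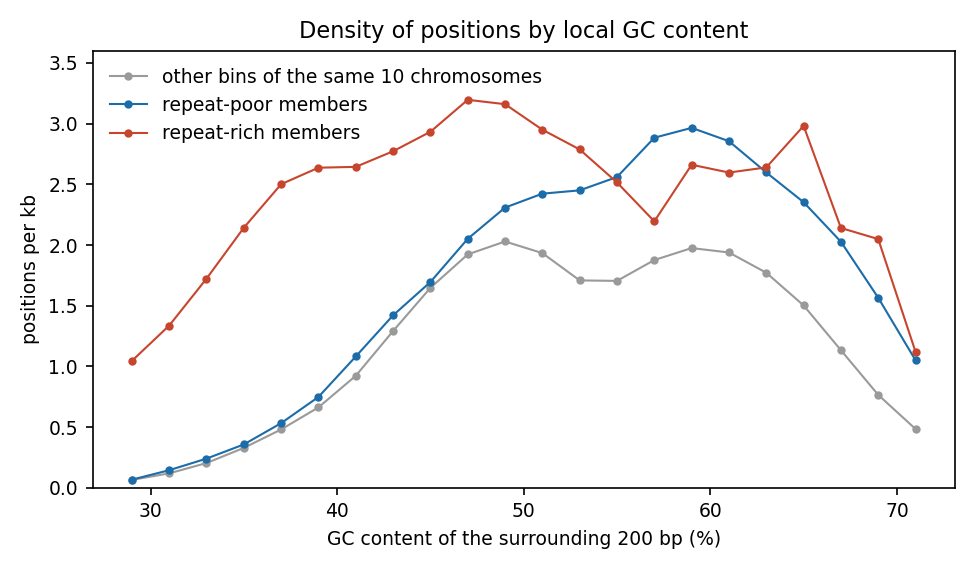
Positions per kb (y axis) against the GC content of the surrounding 200 bp in classes of 2 percentage points (x axis, plotted at the middle of each class). The blue line (repeat-poor members) parts from the grey line (other bins of the same 10 chromosomes) above 50% GC, while the red line (repeat-rich members) is already at 2.50 per kb at 36% to 38%.

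Repeat-poor members held more protein-coding starts per Mb than other bins, and repeat-rich members held fewer. Starts of protein-coding genes numbered 255 in the repeat-poor members, or 8.23 per Mb, 30 in the repeat-rich members, or 4.67 per Mb, and 5.95 per Mb in the other bins of the 10 chromosomes with repeat-poor members. The median member held 3 more protein-coding starts than the median of other bins. Within chromosomes the difference was 2.19 ± 4.40 (SD over 13 chromosomes) and above 0 on 8 of them, so that it was smaller than its spread between chromosomes. The 148 bins with 1400 to 1699 positions held a median of 9 protein-coding starts, against 7 in repeat-poor members, so that the count of genes did not go on rising into the fullest bins.

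The spread between repeat-poor members was wide. The bin at 74 Mb of chromosome 17 held 26 protein-coding starts, among them RPL38, which codes for a protein of the large ribosomal subunit. The bin at 151 Mb of chromosome 7 held 23. The bin at 46 Mb of chromosome 8 held none, and 6 of the 31 held 3 or fewer. Protein-coding genes covered 48.3% of the repeat-poor members and 45.1% of the other bins. Within the repeat-poor members the density was 1.79 positions per kb in protein-coding genes and 1.88 between them.

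Repeat-rich members held more pseudogenes than protein-coding genes. Pseudogenes, which are defective copies of genes, started at 17.0 per Mb there, against 3.78 in repeat-poor members and 4.64 in other bins of the 10 chromosomes. Protein-coding genes covered 17.0% of their length.

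Single long genes held much of several repeat-poor members. In 6 of the 31 bins 1 gene held at least 40% of the positions, in 32.3% to 41.9% of the length. A gene chosen in this way is nearly bound to be denser than the rest of its bin, so the densities below are a description. ZBTB7C, which codes for a zinc finger factor, held 911 of 1708 positions at 48 Mb of chromosome 18, at 2.37 per kb against 1.29 in the rest. CELF4, which codes for an RNA-binding protein of neurons, held 864 of 1702 at 37 Mb of the same chromosome, at 2.68 against 1.24 per kb. CDH23, which codes for a cadherin of sensory hair cells and photoreceptors, held 865 of 1768 at 71 Mb of chromosome 10, at 2.06 against 1.55 per kb.

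The other 3 lay on chromosome 5. FSTL4, a gene of the follistatin family, held 1035 of 2168 positions at 2.49 per kb against 1.94 in the rest of its bin. KCNIP1, which codes for a partner of potassium channels, held 869 of 1934 at 2.27 against 1.73 per kb. SLC25A48, which codes for a carrier of the mitochondrial inner membrane, held 862 of 1954 at 2.09 against 1.86 per kb. These genes were named after their values were seen.

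Few genes of the listed families started in members. Of 17733 protein-coding genes on the 20 chromosomes 285 did, or 1.61%. RPL38 was 1 of 72 ribosomal protein genes, H2BK1 1 of 85 histone genes, and OR6B2 and OR6B3, which lie together on chromosome 2, were 2 of 381 olfactory receptor genes. None of 496 zinc finger genes named with the ZNF prefix, 55 keratin genes, 53 protocadherin genes, 39 HOX genes or 18 genes of the pigment epithelium started in a member. At the share of all genes, most of these families are too small for an absence to be read.

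Start sites of protein-coding genes were low in positions within the dense bins. From 200 bp before to 50 bp after the 255 starts in repeat-poor members there were 49 positions, or 0.77 per kb (95% Poisson interval 0.57 to 1.02). In flanks 1000 to 2000 bp away the density was 1.69 per kb, so that the log2 ratio was -1.14. In other bins of the same 10 chromosomes the window held 0.65 per kb (0.62 to 0.68) and the flanks 0.87, with a log2 ratio of -0.42. The densities of the windows lay within counting error of each other, and the flanks differed. Density in the flanks is part of the counts that chose the bins. The more negative ratio in repeat-poor members was thus partly given by that choice, and is a description. In steps of 50 bp the density was 0.39 per kb just before the start (5 positions) and 2.12 per kb at 100 to 150 bp after it (27 positions), where the first nucleosome of a gene usually lies. It was low again at 200 to 250 bp, with 0.31 per kb from 4 positions. In other bins the step at 100 to 150 bp held 2.66 per kb (1269 positions), so that peak was not higher in repeat-poor members. In repeat-rich members 10 positions at 30 starts gave a log2 ratio of -0.43, too few to place.

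Spacing in the repeat-poor members was that of the rest of the map. Distances between all pairs of positions were most frequent at 186, 377, 557, 743, 941, 1120 and 1304 bp, which gives a repeat of 186.6 bp per nucleosome. The other bins of the same 10 chromosomes gave 186.3 bp. On the 7 chromosomes with enough positions the repeat was 187.6 ± 2.77 bp in members and 186.6 ± 1.69 bp in other bins (SD over chromosomes), a difference within the spread. Neighbours were most often 185 bp apart in repeat-poor members and 183 bp apart in other bins.

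The regularity was also alike. Pairs 183 bp apart, the most frequent neighbour distance of the whole map, were 4.39 times as many as pairs 274 bp apart in repeat-poor members and 4.09 times in other bins. Single repeat-poor bins ranged from 2.70 to 5.16. A higher density thus came with more positions per stretch and not with a shorter repeat. Gaps under 60 bp, which are overlapping calls, made up 11.8% of gaps in repeat-poor members against 8.86% in other bins. That share depends on the density, which chose the bins. As a ratio to the number at an even spread, pairs 35 bp apart were fewer in repeat-poor members, at 2.08 against 3.18 in other bins.

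In repeat-rich members the rhythm was faint or was that of the satellite. The ratio of pairs at 183 bp to pairs at 274 bp was 1.48, with 1.21 to 1.80 in the 7 bins, and did not overlap the range of the repeat-poor bins. Gaps under 60 bp made up 26.6% of gaps, with 22.1% to 32.2% in single bins against 8.85% to 14.5% in repeat-poor bins. Pair distances were most frequent at 176, 348, 512, 683, 856, 1028 and 1199 bp, a repeat of 170.5 bp.

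That shorter repeat came from 2 blocks, chr16:32500001-32640000 and chr21:10640001-10820000, from which stretches are printed above. In them 35.0% and 38.3% of bases equal the base 171 bp further on. The median of other bins was 26.9%, and centromeric bins were taken at 45% or more. Pairs 342 bp apart were 2.50 and 2.18 times as frequent as pairs 427 bp apart in these blocks. The 2130 positions of these blocks alone gave a repeat of 171.0 bp. Without them the other 13011 positions of the repeat-rich members gave 186.5 bp, with a weak contrast of 1.49 between 183 and 274 bp. The maxima behind that value were uneven, at 176, 373, 559, 759, 905, 1133 and 1295 bp. Each maximum was sought only near the place set by those before it, so a value of this size is no sign of a steady repeat. The 171-base rhythm was thus found where the sequence matches itself at that offset more than in the median bin.

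**Figure D5:**
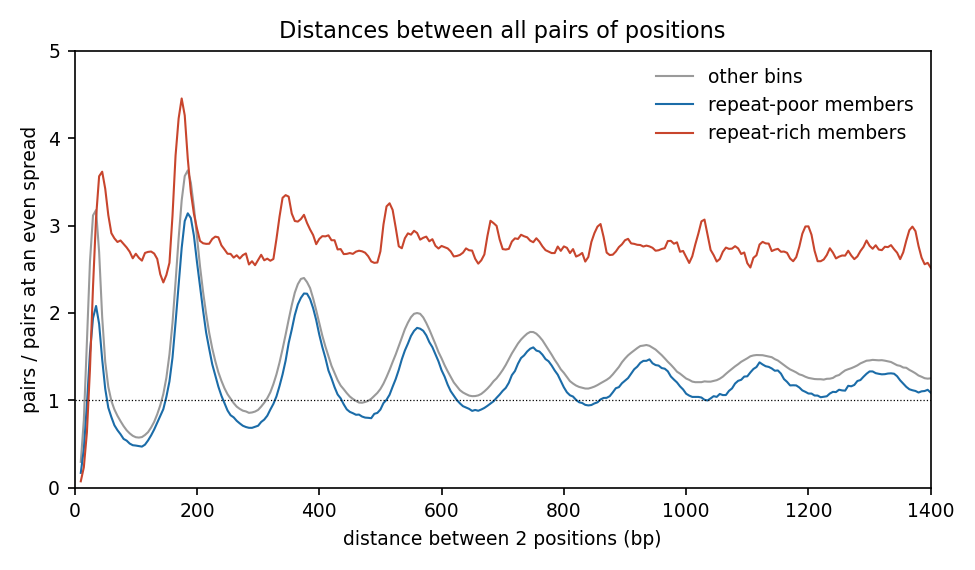
Pairs of positions at each distance, as a ratio to the number at an even spread (y axis), against distance in bp (x axis) for repeat-poor members (blue), repeat-rich members (red) and other bins of the 10 chromosomes with repeat-poor members (grey). Blue and grey rise together near 186, 377 and 557 bp; red lies above 2 at all plotted distances from 30 bp on and carries narrow maxima near 171-base steps.

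Positions lay on GC-rich DNA in members as elsewhere. The 150 bp around positions had 53.9% GC in repeat-poor members, 5.69 points above those bins, and 48.2% in other bins of the same 10 chromosomes, 7.92 points above them. In repeat-rich members it was 44.7%, which was 2.79 points above the bins.

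The close calls bear on membership itself. When positions within 100 bp of each other were counted once, 5 of the 38 bins still reached 1700, namely 2 of chromosome 8, 1 each of chromosomes 4 and 5, and the chromosome 21 bin. Taking the 38 fullest bins by that count kept 31 of the members. The median merged count was 1177 in repeat-rich members (802 to 1771) and 1507 in repeat-poor members (1429 to 1895). The members that dropped out were therefore mostly repeat-rich.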

How the data were processed

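Nucleosomal DNA of interphase ARPE-19 cells was sequenced after MNase digestion. The authors deposited a BED list of called positions in base coordinates, with no count or signal beside them. Bowtie2 and the build hg38/GRCh38 are named in the submitters' processing notes, without versions. The peak caller, its filters and the handling of the 2 batches are not given in the sources used here.

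From the list, duplicate rows were dropped, chromosomes 1 to 22 without 9 and 15 were kept, and positions were counted in bins of 1 Mb and windows of 10 kb. GC content and the 50-base words came from hg38, and genes from GENCODE 44. Pair distances were smoothed over 21 bp, and 7 maxima gave the repeat. The expected count used the density of each GC class over all of chromosomes 1 to 22, so that 9 and 15 were included in it. Centromeric bins were those in which at least 45% of bases equal the base 171 bp on, or the bin with the highest share where none reached that. Python 3.11.15 with numpy 2.4.6, pandas 2.3.3, scipy 1.17.1 and numba 0.67.0 was used. The change point, repeat length, block and word searches were tested on simulated data.

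The members, gene lists and measures were chosen with earlier results of these data known. Genes were to be named at the ends of runs of at least 3 bins, of which none occurred, and in the highest bin, along with the listed families. All other genes were named after their values were seen. With 1 list there is no replicate and no test, and SDs are between chromosomes. Thresholds, bin origin and size, merging of positions, GC window, flanks, smoothing, start site window and each chromosome in turn were varied. Leaving out bins of 15% or more repeated words was added after the data were seen.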

Additional observations from a re-analysis of the deposited data

How the results depend on the processing

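Of 35 alternative values for the 7 results, 27 stayed within the spread between chromosomes or within 1.5 times the main count, 8 moved and 0 reversed. The number of member bins, 38, was 66 at a threshold of 1600, 18 at 1800, 5 with positions within 100 bp merged and 125 with bins of 500 kb and the threshold scaled to them. The GC difference of 6.98 points was 12.8 with merged positions. The difference of 3 protein-coding starts was 8 with all annotated genes. The 21 abrupt ends were 12 with flanks of 1 Mb and 37 at a ratio of 1.5. Without bins of 15% or more repeated words there were 31 members and 14 abrupt ends, and the repeat was 186.6 bp against 187.1 bp over all 38 members.

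With each of 13 chromosomes left out in turn, the GC difference was 5.67 to 8.11 points, that of protein-coding starts 2 to 3, and, over all 38 members, the repeat was 186.4 to 187.6 bp (187.1 with none left out) and the start site log2 ratio -1.15 to -0.93 (-1.04 with none left out). No paired analysis was possible because the list does not tell the 2 batches apart. The depth behind each position is unknown, so a low count can mean few reads or few nucleosomes.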
